A study of Mus musculus with 2 samples.

Results

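The genes described here are 10 markers of the erythroblastic island macrophage, the cell at the centre of the clusters in which red cells mature. They are Vcam1, Adgre1, C1qa, C1qb, C1qc, Siglec1, Spic, Cd163, Mertk and Axl, taken by symbol from both gene tables, and all 10 were found among the 43346 gene rows. Total RNA had been sequenced from erythroblasts, the nucleated precursors of red cells, in 2 libraries of a single group. Per the labels, the mice were C57BL/6J males, adult at 5 to 6 weeks, the cells were primary, and the linked protocols are titled for isolation from bone marrow and for RNA-seq of small pools of cells. The starting amount was 1 ng RNA a library, and spike-ins were used. The libraries are biological replicates 1 and 2 under 1 donor entry, and the design holds no second condition, agent or genotype.

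In bone marrow and spleen, a central macrophage holds erythroblasts at its surface through adhesion molecules, supplies them with iron and engulfs the nuclei they expel. Its surface proteins bind integrins and sialic acid on the erythroblast, while its phagocytic receptors and complement C1q recognise dying cells and extruded nuclei. Macrophages that take up red cells also handle hemoglobin and heme, a program that in mouse depends on the transcription factor encoded by Spic. Contact between the cell types is close, so island macrophages and erythroblasts can be isolated together. In bulk RNA such as this, fewer cells of a type and less RNA per cell cannot be told apart, nor can the cell that carried a given transcript.

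The libraries held 80804873 and 117026199 expected counts over the gene rows, in replicates 1 and 2 in turn, an order kept wherever a pair of library values is given. Mitochondrial rRNA took 78.3% and 78.5% of the deposited TPM, a length-corrected relative abundance of transcripts, and nuclear protein-coding genes 4.68% and 5.10%. Levels are therefore given as rescaled TPM, in which the nuclear protein-coding genes of a library sum to 1000000. This scale corrects for length, so levels can be compared between genes. The length used for a gene is set in each library, so a pair of rescaled TPM can differ from the pair of counts. Globin genes held 43.7% and 43.4% of it. Where a gene had 0 counts, up to 3 remain possible at this depth, which for a transcript of 1000 bases is 0.892 and 0.555 rescaled TPM. The spike-in rows summed to 36.0 and 89.1 deposited TPM. Deposited TPM is given in steps of 0.01, which the rescaling multiplies by 21.4 and 19.6, so low levels move in coarse steps.

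All 10 genes were detected, at a rescaled TPM of 1 or more in both libraries, as were 42.9% of the 21461 nuclear protein-coding genes. They held 2672 and 3677 counts in all and 0.0327% and 0.0314% of the rescaled TPM. Their median was 26.3 and 20.7, against 0.642 and 0.392 over all nuclear protein-coding genes and 14.5 in each library over the detected ones. Levels spanned 36.1-fold in replicate 1 and 47.1-fold in replicate 2 between the highest gene, Vcam1, and the lowest, Mertk. Vcam1 and the C1q genes together made 73.0% and 81.9% of the summed level of the 10. On the deposited scale, 5 of the 10 reached a TPM of 1 in both libraries, as did 14.5% of nuclear protein-coding genes. Expected counts of all 10 were whole numbers in both libraries within 0.005. The same held for 82.5% of the 10238 nuclear protein-coding genes with 20 or more summed counts.

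**Figure D1:**
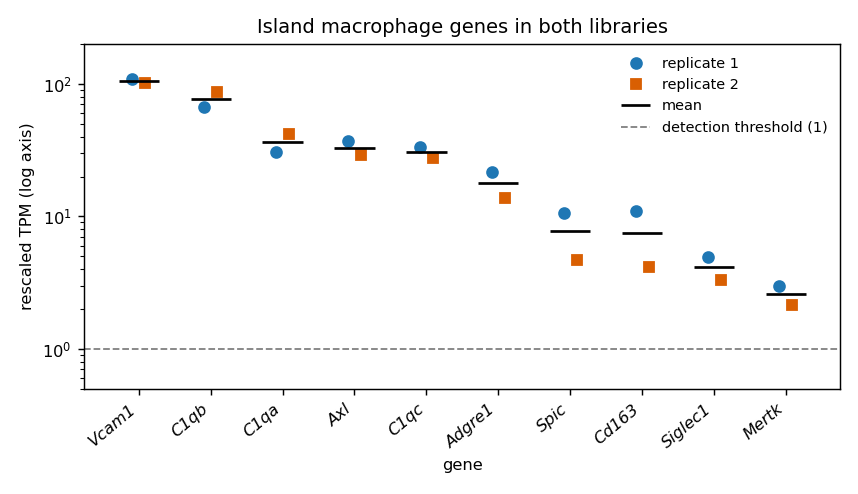
Rescaled TPM (log axis) of the 10 genes in replicate 1 (circles) and replicate 2 (squares), with the mean as a bar and the detection threshold of 1 as a dashed line. Vcam1 lies highest at 108 and 102, Mertk lowest at 2.99 and 2.16, and the points of Spic and Cd163 lie farthest apart on this axis.

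Vcam1 encodes the adhesion molecule of the macrophage that binds the integrin made of the Itga4 and Itgb1 products on erythroblasts. It (ENSMUSG00000027962, chromosome 3, 116109949 to 116129688 on mm10) held 1187 counts in replicate 1 and 1782 in replicate 2. These gave 108 and 102 rescaled TPM, a mean of 105 ± 4.68 (SD, n = 2), the highest of the 10 genes and the closest pair in proportion. Their log2 ratio of replicate 2 over replicate 1 was -0.06, with a counting interval of -0.17 to 0.05. Vcam1 stood at percentiles 95.9 and 95.8 among nuclear protein-coding genes. Its reads were assigned to 1 transcript, Vcam1-201, since the tables hold no other for this gene, while GENCODE M21 lists 4. A truncated form of the protein, known in mouse, thus cannot be told apart here. The antisense gene Gm43109 overlaps Vcam1 in GENCODE M21 but is not among the gene rows, so no reads could be assigned to it. The sources used here do not say whether counting used the strand.

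Siglec1 and Adgre1 encode surface proteins used to stain island macrophages. Siglec1 (ENSMUSG00000027322, chromosome 2, 131069220 to 131086765), known as CD169 or sialoadhesin, binds sialic acid on neighbouring cells. It held 103 and 110 counts and 4.92 and 3.33 rescaled TPM (4.13 ± 1.12, SD, n = 2). Adgre1 (ENSMUSG00000004730, chromosome 17, 57358691 to 57483527), the adhesion G protein-coupled receptor known as F4/80, held 228 and 229 counts, with 21.8 and 13.7 rescaled TPM (17.8 ± 5.72, SD, n = 2). Adgre1 was thus above Siglec1 in both libraries, and their ranges did not overlap. For its depth, the second library held fewer reads of each, with log2 ratios of -0.54 (counting interval -0.95 to -0.15) for Siglec1 and -0.63 (-0.91 to -0.37) for Adgre1.

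C1qa, C1qb and C1qc encode the chains of C1q, the recognition unit of the classical complement pathway, which is assembled from equal numbers of each chain and coats dying cells. The genes lie side by side on the minus strand within 18.7 kb of chromosome 4 (136880129 to 136898803). C1qb (ENSMUSG00000036905) led with 215 and 437 counts and 66.9 and 86.3 rescaled TPM, a mean of 76.6 ± 13.7 (SD, n = 2). C1qa (ENSMUSG00000036887) held 94 and 201 counts and 30.8 and 41.8 rescaled TPM (36.3 ± 7.76, SD, n = 2). C1qc (ENSMUSG00000036896) held 119 and 157 counts and 33.1 and 27.7 rescaled TPM (30.4 ± 3.89, SD, n = 2). Summed, the chains reached 131 and 156 rescaled TPM, more than Vcam1 in both libraries.

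The C1q chains were not at equal levels of RNA. C1qb stood above C1qa in both libraries by a similar factor, 2.17-fold and 2.07-fold, a log2 ratio of 1.08 ± 0.05 (SD, n = 2). C1qb also exceeded C1qc, 2.02-fold and 3.12-fold. Between C1qc and C1qa the direction turned: the log2 ratio of C1qc over C1qa was 0.11 in replicate 1 and -0.60 in replicate 2, so these levels did not differ beyond the spread of the libraries. C1qa and C1qb were the only members of the 10 with a ratio between libraries above 0, at log2 values of 0.44 (counting interval 0.09 to 0.82) and 0.37 (0.14 to 0.62). C1qc stood at -0.24 (-0.60 to 0.11).

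The proximal promoter of C1qb is shown because it is the highest of the 6 members with a promoter window in the RefSeq table used here, and that of Spic because Spic encodes the Ets factor of this set. Each is the 250 bases before the RefSeq start on GRCm38.p6, the mm10 build, read 5′ to 3′ along the gene, and the start used for Spic lies inside the gene span of GENCODE M21. Capitals mark GAGGAA, a core that Ets factors of the Spi group bind, and TGCTGA, the first part of the element bound by the heme-sensing repressor Bach1, each searched on both strands.
C1qb (chr4:136886201-136886450, minus strand): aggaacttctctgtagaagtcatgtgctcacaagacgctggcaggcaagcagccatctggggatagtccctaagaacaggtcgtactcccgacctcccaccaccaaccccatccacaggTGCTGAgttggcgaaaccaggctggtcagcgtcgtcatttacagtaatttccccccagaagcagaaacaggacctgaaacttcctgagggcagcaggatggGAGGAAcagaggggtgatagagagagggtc
Spic (chr10:88683024-88683273, minus strand): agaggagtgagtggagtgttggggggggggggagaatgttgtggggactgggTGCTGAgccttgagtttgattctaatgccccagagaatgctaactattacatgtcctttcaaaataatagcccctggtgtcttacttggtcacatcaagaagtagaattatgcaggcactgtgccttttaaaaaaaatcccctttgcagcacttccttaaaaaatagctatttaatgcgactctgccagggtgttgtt
GAGGAA or its complement was present in 3 of the 6 windows (Axl, C1qb and C1qc), and in 23.3% of all 32851 windows of the table. TGCTGA was present in 2 of the 6 (C1qb and Spic), and in 16.1% of all windows. In C1qb the first base of GAGGAA lay at position -30 and that of TGCTGA at -131, counted from the RefSeq start, and in Spic the TGCTGA match lay at -198. The matches do not overlap each other, and no binding was measured.

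Spic and Cd163 belong to the handling of heme and hemoglobin. Spic (ENSMUSG00000004359, chromosome 10, 88674772 to 88685015), whose product is required for red pulp macrophages of the mouse spleen, held 49 and 41 counts and 10.7 and 4.71 rescaled TPM (7.70 ± 4.23, SD, n = 2). Cd163 (ENSMUSG00000008845, chromosome 6, 124304656 to 124330527), the scavenger receptor for hemoglobin bound to haptoglobin, held 158 and 95 counts and 10.9 and 4.12 rescaled TPM (7.51 ± 4.80, SD, n = 2). The genes were level with each other in both libraries, with a log2 ratio of Cd163 over Spic of -0.08 ± 0.16 (SD, n = 2). Both stood lower in replicate 2. Cd163 had the largest difference between libraries of the 10 genes, a log2 ratio of -1.36 (counting interval -1.76 to -1.004). That of Spic was -0.87 (-1.54 to -0.27). In the rescaled TPM of Spic, replicate 1 also carried 4.28 reads on the short transcript Spic-203, which made 23.4% of the gene's TPM there and 0% in replicate 2.

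Axl and Mertk encode receptor kinases that recognise phosphatidylserine on dying cells through bridging proteins such as Gas6. MerTK acts in the mouse in the uptake of expelled erythroblast nuclei. Axl (ENSMUSG00000002602, chromosome 7, 25757273 to 25788705) held 478 and 595 counts and 37.0 and 28.8 rescaled TPM (32.9 ± 5.78, SD, n = 2). Mertk (ENSMUSG00000014361, chromosome 2, 128698956 to 128802894) held 41 and 30 counts, with exact counting intervals of 29.4 to 55.6 and 20.2 to 42.8, and 2.99 and 2.16 rescaled TPM (2.58 ± 0.592, SD, n = 2). In rescaled TPM, Axl exceeded Mertk 12.4-fold and 13.4-fold. The replicate 2 value uses the length of a shorter Mertk transcript, described with the transcripts, and in counts without length correction the ratios were 11.7 and 19.8. Their log2 ratios of replicate 2 over replicate 1 were -0.33 (counting interval -0.51 to -0.15) and -1.04 (-1.83 to -0.38). The antisense gene Gm14011 within Mertk had 0 counts in both libraries.

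In order of mean level, the genes ran Vcam1, C1qb, C1qa, Axl, C1qc, Adgre1, Spic, Cd163, Siglec1 and Mertk. Of the 9 neighbouring pairs, 5 had ranges over the libraries that did not overlap. Those pairs were Vcam1 and C1qb, C1qb and C1qa, C1qc and Adgre1, Adgre1 and Spic, and Siglec1 and Mertk. Compared within each library, 42 of the 45 possible pairs kept the same direction in both. The direction turned between C1qa and Axl, between C1qa and C1qc, and between Spic and Cd163. Axl was above C1qc, and Spic and Cd163 were each above Siglec1, in both libraries, although their ranges overlapped across the libraries.

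Between the libraries, 2 of the 10 genes, Cd163 and Mertk, were over 2 times apart, both higher in replicate 1. Over all 10238 nuclear protein-coding genes with 20 or more summed counts, 24.1% were over 2 times apart in either direction and 11.9% in that one. The count is near that background. The median log2 ratio of the 10 genes was -0.44, with 8 below 0, against 0.00 over the nuclear protein-coding genes. Their median absolute log2 ratio was 0.49, against 0.47. The counting interval of the ratio excluded equality for 8 of the 10 and for 61.4% of the background, so spread beyond counting error was common. The share over 2 times apart was lower at greater depth. Among genes with 20 to under 100 summed counts, where Spic and Mertk fall, 52.4% were over 2 times apart. This share was 26.2% at 100 to under 300 counts, the class of Cd163, Siglec1, C1qa and C1qc. It was 6.38% at 300 to under 1000, the class of Adgre1 and C1qb, and 0.466% at 1000 to under 10000, the class of Vcam1 and Axl.

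**Figure D2:**
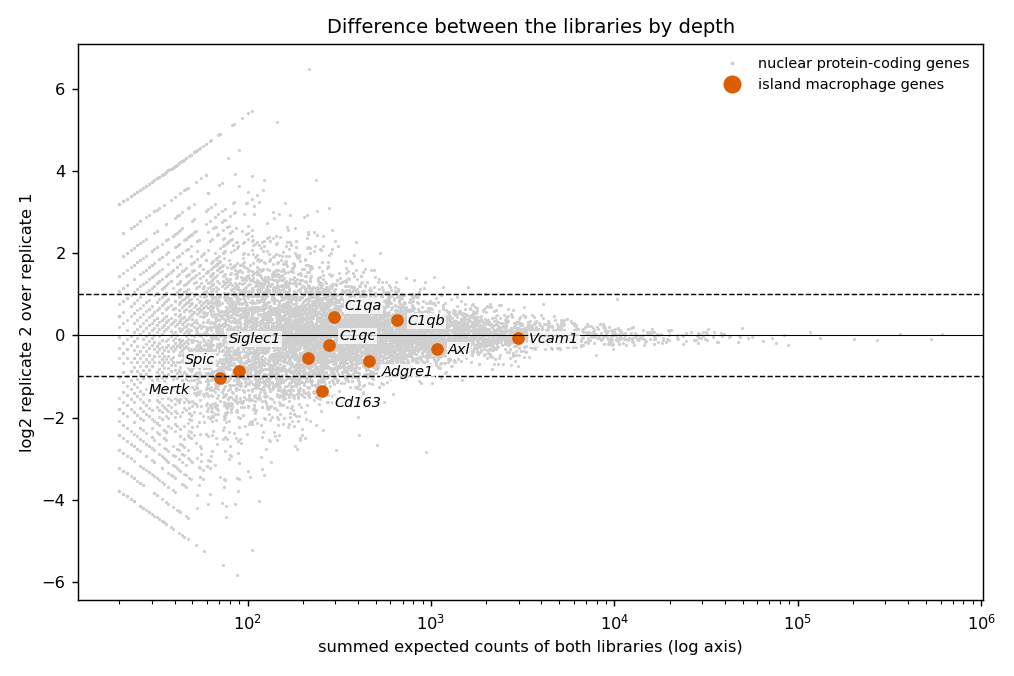
Log2 ratio of replicate 2 over replicate 1 against the summed expected counts (log axis) for nuclear protein-coding genes with 20 or more counts (grey) and the 10 genes (orange), with dashed lines at a 2-fold difference. The grey cloud narrows with depth; Cd163 at -1.36 and Mertk at -1.04 lie below the lower line, and Vcam1 lies near 0 at -0.06.

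The tables listed 26 transcripts of the 10 genes, of which 17 held reads in at least 1 library. Vcam1, C1qa and C1qb had 1 transcript each. The leading transcript was the same in both libraries for 8 genes, 5 of them among the 7 with several transcripts. The protein-coding transcript Axl-201 held 92.3% and 91.5% of the TPM of Axl, and the rest lay on retained-intron transcripts, Axl-203 in replicate 1 and Axl-206 in replicate 2. By the posterior mean, which spreads reads over more transcripts, Axl-201 held 70.1% and 82.5%. Adgre1-202 held 87.8% and 100%, Siglec1-201 96.2% and 100%, Spic-201 76.6% and 100%, and C1qc-201 100% in each. By the posterior mean Spic-201 held 67.1% and 87.0%. Protein-coding transcripts as a whole carried 99.2% and 98.6% of the summed TPM of the 10 genes. Reads on other transcript types came to 4.45 and 38.3 counts.

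Cd163 was led by different transcripts in the 2 libraries. Cd163-201 held 68.4% of the TPM in replicate 1, from 107 estimated reads, and 0% in replicate 2. Cd163-202 held 31.7% in replicate 1 and 100% in replicate 2, from 50.7 and 95 reads. By the posterior mean the difference was smaller, with Cd163-202 at 32.7% and 67.3%. The transcripts share most of their exons, and Cd163-202 carries 83 extra coding bases at the start of an exon near its 3′ end (chr6:124328962-124329044 on mm10, plus strand). These bases, from GENCODE M21, are shown because only reads that touch them or the matching junction tell the forms apart there. The extra bases are in capitals, with 15 shared bases on each side in lower case.
Cd163-202: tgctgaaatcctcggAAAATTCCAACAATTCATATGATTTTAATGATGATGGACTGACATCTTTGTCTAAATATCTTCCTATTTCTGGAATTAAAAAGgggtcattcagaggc
The annotated coding length is 3477 bases for Cd163-202 and 3363 for Cd163-201, and the shorter form stops within the exon that the longer one reads through.

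Mertk too was led by different transcripts. All 41 reads of replicate 1 were assigned to the coding transcript Mertk-201 and all 30 of replicate 2 to Mertk-202, a processed transcript with no annotated coding sequence. By the posterior mean, Mertk-201 held 93.1% in replicate 1 and 3.86% in replicate 2. Mertk-202 lacks the first 8 of the 19 exons of Mertk-201, a stretch of 1371 bases or 31.9% of its spliced length, and begins 34 bases upstream of the next exon (chr2:128771313-128771346, plus strand). Those 34 bases lie in an intron of Mertk-201 and are shown in capitals because they set Mertk-202 apart at its start, with the first 15 bases of the shared exon in lower case.
Mertk-202: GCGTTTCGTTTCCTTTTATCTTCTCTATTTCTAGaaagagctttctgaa
Since Mertk-202 is shorter, at 2744 bases against 4302, the rescaled TPM of 2.16 in replicate 2 rests on a shorter length than the 2.99 of replicate 1. These assignments rest on 41 and 30 reads, and a difference in transcripts between the libraries was not tested.

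**Figure D3:**
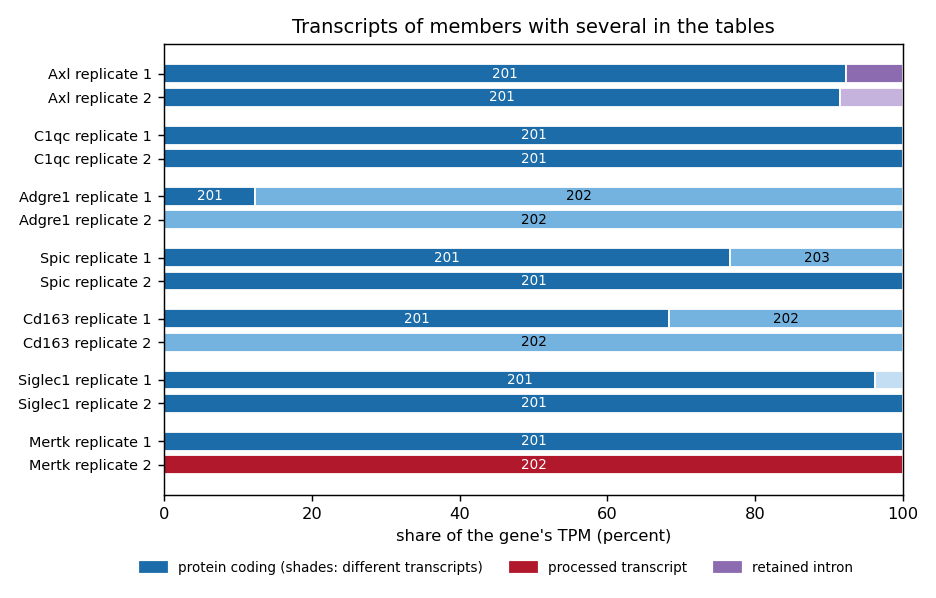
Share of each gene's TPM (percent) on its transcripts, for the 7 genes with several transcripts in the tables, replicate 1 above replicate 2 for each gene; numbers are the endings of transcript names and colours the annotated type. In 5 of the 7 genes the same transcript led in both libraries, while Cd163 and Mertk were led by different ones, Mertk in replicate 2 by a processed transcript.

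Over all nuclear protein-coding genes, 42.9% were detected, the share to set beside the count of each list. Among genes that island macrophages share with other macrophages, 14 of 15 (93.3%) were detected. Which cells carried the transcripts of these genes was not tested. The median of the list was 8.34 and 11.0 rescaled TPM, with no gene at 0 counts in both libraries. The highest were Trf, which encodes the iron carrier transferrin, at 145 and 206, the lectin gene Lgals3 at 158 and 100.02, the pore-forming protein gene Mpeg1 at 94.95 and 104, and the lysosomal marker Cd68 at 43.6 and 49.8. Nr1h3, which encodes a sterol-sensing nuclear receptor, and the scavenger receptor gene Marco were lowest, at 1.28 and 1.37 and at 0.214 and 0.784. Chosen after their values were seen, the growth factor receptor gene Csf1r stood at 28.4 and 23.9, the mannose receptor gene Mrc1 at 28.2 and 23.7, and the phosphatidylserine receptor gene Timd4 at 7.70 and 2.16. The median of the 10 island genes was above that of this list by a log2 ratio of 1.20 ± 0.49 (SD, n = 2), on log2(rescaled TPM + 1).

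The adhesion partners on both sides of the island were detected for 8 of 10 genes (80%, against 42.9% of all nuclear protein-coding genes). Itga4 and Itgb1, which encode the chains of the integrin that binds Vcam1, stood at 249 and 246 and at 38.5 and 34.5 rescaled TPM. Cd44, a receptor for hyaluronan, stood at 69.1 and 61.6 and the matrix gene Emilin1 at 17.3 and 30.01. The lowest were Palld with 8 and 0 counts and Epha4 with 0 and 23. Itga4 was thus above its ligand gene Vcam1 in both libraries.

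In apoptotic cell clearance, 8 of 13 listed genes were detected (61.5%, against 42.9% of all nuclear protein-coding genes). The small GTPase gene Rac1 led at 148 and 134 rescaled TPM, followed by Dnase2a, whose product digests the DNA of engulfed nuclei, at 46.2 and 32.6. Elmo1, which encodes an engulfment adaptor, stood at 30.6 and 18.8, and the receptor gene Lrp1 at 14.3 and 12.2. By counts Lrp1 ran the other way, with 254 and 504 and a log2 ratio of replicate 2 over replicate 1 of 0.34. The lowest were Gas6, the ligand gene for Axl and Mertk, with 2 and 0 counts, and Tyro3, their receptor relative, with 0 in both. A count of 0 allows up to 3 counts.

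Of 11 complement and C1q partner genes, 7 were detected (63.6%, against 42.9% of all nuclear protein-coding genes). Calr, which encodes calreticulin, a protein that binds C1q on dying cells, stood at 297 and 261 rescaled TPM, C3 at 219 and 231, C1qbp at 95.6 and 74.3 and the anaphylatoxin receptor gene C5ar1 at 16.0 and 7.84. C1s1, which encodes a protease that joins C1q in the first complement complex, had 0 counts in both libraries. The receptor gene C3ar1 had 3 and 0 counts. C1ra, which encodes the partner protease of C1s and was chosen after its values were seen, had 8 and 11 counts. C1q chains were read with few or no reads of the proteases of their complex.

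Heme and hemoglobin genes were detected for 9 of 10 (90%, against 42.9% of all nuclear protein-coding genes). Their median was 53.1 and 73.9 rescaled TPM, above the 10 island genes, whose log2 ratio to this list was -1.39 ± 0.57 (SD, n = 2). Erythroid cells use several of them too. The biliverdin reductase gene Blvrb led at 364 and 352, then the heme transporter gene Slc48a1 at 231 and 191, the iron exporter gene Slc40a1 at 93.5 and 131 and the haptoglobin gene Hp at 102 and 130. Lrp1 was among the lowest at 14.3 and 12.2, and Hpx, for hemopexin, had 0 counts. Of the Ets and Irf factors, 6 of 8 were detected (75%, against the same 42.9%). Spi1, which encodes the Spi-C relative PU.1, stood at 138 and 62.2. By counts its difference was smaller, with 410 and 448 and a log2 ratio of replicate 2 over replicate 1 of -0.52. Elf1 stood at 35.1 and 21.6, Fli1 at 31.4 and 27.8 and Irf8 at 14.97 and 17.8. Spib and Irf4 were lowest, with 17 and 6 and with 6 and 1 counts. Spic at 10.7 and 4.71 was below Spi1 in both libraries.

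Of 12 genes listed beside Adgre1 and Siglec1, 9 were detected (75%, against 42.9% of all nuclear protein-coding genes). Most are adhesion G protein-coupled receptor or Siglec genes, and Spn is neither. Adgre5 stood at 32.5 and 58.2 rescaled TPM, Adgrg3 at 21.6 and 26.5, Adgrg1 at 23.9 and 22.9 and Siglecg at 7.91 and 38.6. By counts the difference in Siglecg was smaller, with 67 and 171 and a log2 ratio of replicate 2 over replicate 1 of 0.69. Siglech had 7 and 0 counts and Cd83 1 and 9. Adgre1 at 21.8 and 13.7 lay within the range of this list.

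Marker lists of some of the cell types the samples could hold were set beside the 10 genes. No list was made for lymphoid cells, megakaryocytes or progenitors. The island genes had a median of 26.3 and 20.7 rescaled TPM, against 1183 and 1044 over 12 erythroblast markers, all detected. The log2 ratio was -5.51 ± 0.11 (SD, n = 2). Among those markers, the anion exchanger gene Slc4a1 stood at 5562 and 5083, the heme synthesis gene Alas2 at 3747 and 3589, Kel at 2978 and 2720 and the transferrin receptor gene Tfrc at 1912 and 1913, with Gata1 and Klf1 lowest at 48.1 and 80.2 and at 60.5 and 61.4. The labelled cell type was thus present by its markers. Vcam1 at 108 and 102 stood above Gata1 and Klf1 in both libraries.

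Markers of other lineages were present too, and their part in the levels of the 10 genes was not tested. All 15 neutrophil markers were detected, with a median of 997 and 981 and a sum of 45202 and 47701 rescaled TPM. The log2 ratio of the island genes to this list was -5.35 ± 0.22 (SD, n = 2). The erythroblast markers summed to less in both libraries, 19926 and 18832. That list holds 12 genes and leaves out the globin genes, which held 43.7% and 43.4% of the rescaled TPM. These sums therefore do not compare the RNA of the cell types. The neutrophil markers were led by S100a9 at 14200.3 and 16292, S100a8 at 13162 and 14511, Ngp at 7656 and 6940.2 and Lcn2 at 2334 and 2115. Ly6g at 58.8 and 116 and Cebpe at 22.9 and 30.2 were the lowest. All 10 monocyte markers were detected, with a median of 45.4 and 45.2 and a sum of 1833 and 1968. Ly6c2 stood at 1324 and 1552, Fn1 at 161 and 150.4, S100a4 at 141 and 65.7 and Ccr2 at 82.5 and 73.3, while Cx3cr1 at 7.70 and 6.86 and Cd14 at 1.71 and 3.14 were lowest. The median of the island genes was below that of the monocyte list by a log2 ratio of -0.93 ± 0.23 (SD, n = 2).

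Eosinophils carry the Adgre1 product in mouse, and 8 of 9 eosinophil and basophil markers (88.9%) were detected, with a sum of 869 and 722. They were led by Mcpt8 at 286 and 203, Prg2 at 220.06 and 143, Prss34 at 189.7 and 153 and Cpa3 at 73.6 and 124, with Siglecf at 7.91 and 2.35 and Il5ra with 8 and 0 counts the lowest. Endothelial and stromal cells can express Vcam1 and Axl. Of 13 of their markers, 3 were detected (23.1%, against 42.9% of all nuclear protein-coding genes), and the list summed to 56.9 and 33.1 rescaled TPM. The part of these cells in the levels of Vcam1 and Axl was not tested. Pecam1, which blood cells also express, stood at 5.13 and 13.7, the chemokine gene Cxcl12 at 8.77 and 10.00 and Stab2 at 6.63 and 2.16. By counts Stab2 ran the other way, with 27 and 68 and a log2 ratio of replicate 2 over replicate 1 of 0.66. Lepr had 47 counts in replicate 1, at 33.8 rescaled TPM, and 0 in replicate 2. Kdr and Emcn, both endothelial, had 0 counts in both libraries. Chosen after their values were seen, the endothelial receptor gene Tek had 0 and 45 counts, Cdh5 had 2 and 0, and the stromal and endothelial ligand gene Kitl had 1 and 143. Among 8 dendritic cell markers, 2 were detected (25%, also below 42.9%), Bst2 at 6.20 and 8.24 and Zbtb46 at 1.92 and 3.14. Cd209a stood at 5.35 and 0.784 and Flt3 at 0.855 and 1.96, and Itgax and Xcr1 were lowest, with 4.09 and 7 and with 0 and 1 counts. The list summed to 16.3 and 14.7.

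**Figure D4:**
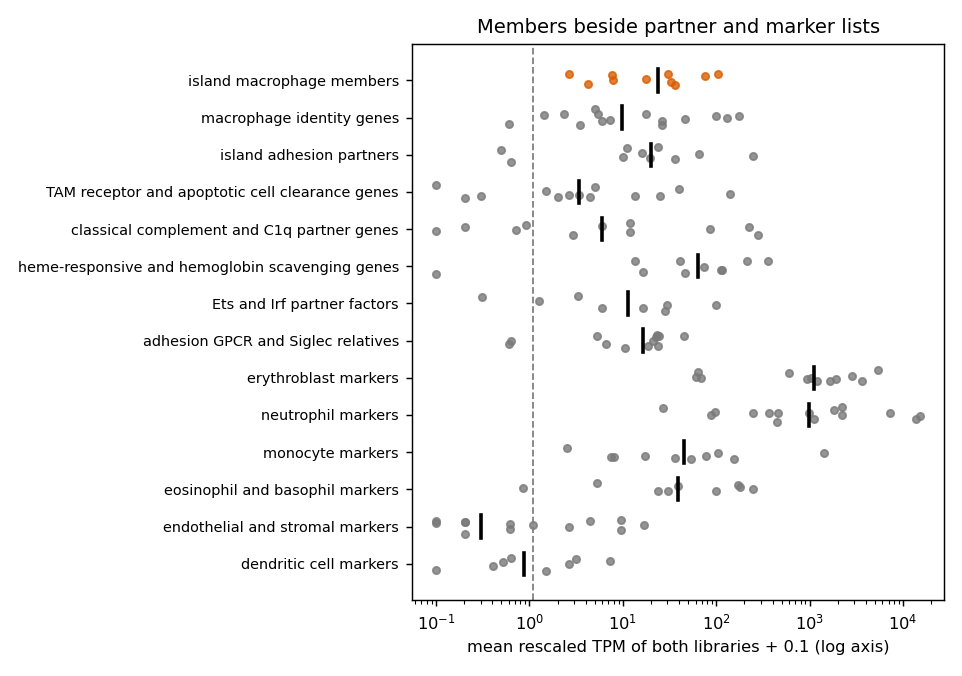
Mean rescaled TPM of both libraries plus 0.1 (log axis) for each gene of the 10 island macrophage genes (orange, top) and of the other lists (grey), with list medians as black bars and the detection threshold as a dashed line. By list medians the island genes lie below the erythroblast and neutrophil markers and above the endothelial and dendritic markers.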

How the data were processed

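Total RNA of erythroblasts was sequenced in 2 libraries of 1 group. Per the deposited read-me, the tables came from transcriptome alignments on mm10, with GENCODE M4 as annotation. Column names match the output of RSEM. Which aligner and quantifier were run is not given in the sources used here. Each deposited expected count is an estimate that need not be whole, rounded here for edgeR and DESeq2. The deposited TPM covers all rows of a table, with mitochondrial rRNA and spike-ins included. The deposited FPKM and the deposited posterior mean of TPM, held as a score, served as alternatives. The percent of a gene's TPM on each transcript was deposited by the authors.

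Here TPM was rescaled to sum to 1000000 over the 21461 nuclear protein-coding genes of GENCODE M21, matched by Ensembl identifier without version (42462 of 43346 gene rows matched). A gene was called detected at a rescaled TPM of 1 or more in both libraries. Ratios between libraries are log2 CPM (counts scaled to library size) with TMM factors of 0.962 and 1.04 and a prior count of 2 (edgeR 4.0.16). The size factors of DESeq2 1.42.0, which include depth as the TMM factors do not, were 0.8 and 1.25. With them the median log2 ratio of the 10 genes was -0.433, against -0.435 with TMM. Intervals of counts are exact Poisson intervals at 95%, and those of ratios come from exact Clopper-Pearson limits. They cover counting error only, since no molecular identifiers mark which reads are copies of 1 molecule. With 1 group no contrast exists, so no p-value is given. The spread between these libraries may be technical, since the labels do not name separate animals. A chi-square of 557497 on 11413 degrees of freedom over the rounded counts showed that the libraries were not 1 library deposited in duplicate. The rescaling and ratio steps were tested on simulated data. All 10 genes are named, and from each other list the 4 highest and 2 lowest by mean rescaled TPM. The genes and lists were chosen with earlier results of these data known. Timd4, Stab2, Lrp1, Siglecf and Siglech each stand in more than 1 list.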

Additional observations from a re-analysis of the deposited data

How the results depend on the processing

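Of the alternatives tried on the summary values, 96 of 106 moved them by less than the spread between libraries, or moved a count by at most 1.5 times. Part of this tally was fixed in advance and does not measure stability. Leaving out either library always moves a mean of both by less than their SD. The count filter changed nothing because all 10 genes pass it. Rescaled FPKM and levels recomputed from counts and effective length restate the same quantity as rescaled TPM. The alternatives recomputed from counts and effective length, and those on the order of levels, were chosen after seeing the data. All 10 genes stayed detected except at a deposited TPM of 1, where 5 did, and when rescaled over all named nuclear genes, where 9 did. The median level was 41.7 rescaled without globin genes and 8.50 rescaled over all named nuclear genes, a change of scale that every gene shares. The log2 ratio of C1qb over C1qa was 1.16 in counts without length correction. The share of protein-coding transcripts was 96.7% by the posterior mean. With list means, the log2 ratio of the 10 genes was -6.55 to neutrophil and -2.53 to monocyte markers, lists that hold a few very high genes. Endothelial and stromal markers detected numbered 8 by the posterior mean and 4 to 5 in single libraries. Dendritic cell markers numbered 3 to 4 in single libraries. The sign of C1qc over C1qa differed between single libraries, from -0.60 to 0.11. Depth limits Mertk and Spic most, with 30 to 49 counts a library. No paired analysis was possible because the samples form a single group.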
